A study of Mus musculus with 42 samples.

Results

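The 41 genes described here encode collagens, elastic fibre proteins, adhesive glycoproteins, proteoglycans and laminins of the extracellular matrix, together with Igfbp5 and Igfbp7, secreted carriers of insulin-like growth factors. They were taken by gene name from a list of matrix genes, and all 41 were found among the 48321 gene names of each of the 2 deposited count tables. RNA was sequenced from 42 libraries, 14 groups of 3, made along the conversion of mouse embryonic fibroblasts (MEF) into induced pluripotent stem cells (iPSC). In both reprogramming series the cells collected during reprogramming were sorted on a red reporter for Tet1 (mCherry, present in every sorted fraction) and a green reporter for Pou5f1 (GFP, absent or present). Tet1 is an enzyme that oxidises methylated cytosine, and Pou5f1 is a core transcription factor of pluripotent cells.

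The series called naivex2 used 3 embryo lines of a cross between the strains B6; 129S4-Tg(Tet1-mCherry)B37Koh and B6;CBA-Tg(Pou5f1-EGFP)2Mnn/J with the genotype Tg(mCherry)/wt; Tg(GFP)/wt. Its libraries, all in the first table, are mCherry+/GFP- cells at days 10, 12 and 14, mCherry+/GFP+ cells at days 12 and 14, clonal iPSC lines, and the parental MEF of day 0. The series called totalx2 used 3 lines of a cross between B6- Tet1tm1.1Koh and B6;129S4-Pou5f1tm2Jae/J, labelled with the same genotype. Its libraries, in the second table, are mCherry+/GFP- cells at days 8, 10 and 12 and mCherry+/GFP+ cells at days 10 and 12. The second table also holds clonal iPSC lines of a cross between B6- Tet1tm1Koh and B6;CBA-Tg(Pou5f1-EGFP)2Mnn/J that lack Tet1 (KO, mut/mut;GFP/wt) and their wild-type counterparts (WT, wt/wt;GFP/wt). Every library is male. The iPSC lines were grown on feeder cells and depleted of them before RNA extraction, and each is 1 clone. The second table has no MEF, so its cells have no fibroblast starting point to be set against, and levels are compared only within a table.

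The extracellular matrix is the protein scaffold that cells secrete around themselves. Fibroblasts are its main makers in connective tissue: they lay down fibrils of collagens I, III and V, cross-link them with lysyl oxidases, and surround them with fibronectin, elastic fibres and proteoglycans. Epithelial and early embryonic cells sit instead on a basement membrane, a thin sheet of laminins, collagen IV, nidogen and perlecan, and the laminin chains they use differ from those of connective tissue. Loss of the fibroblast programme is a familiar early step of reprogramming.

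A gene's level is given in CPM, counts per 1000000 of the library's total after scaling by the trimmed mean of M values (TMM). Reads were counted over the whole gene span, introns included, so a level is compared between libraries and not between genes. Fold changes are log2 values with their standard errors, from edgeR's quasi-likelihood test fitted to all 21 libraries of a table, and a gene is called at a Benjamini-Hochberg adjusted p below 0.05 over all genes tested. All 41 genes passed the filter on low counts in both tables, where 16132 and 15197 genes were tested. Per the labels, each table is 1 sequencing batch and the sorted fractions came from 3 independent lines. The main fit did not pair groups by line. Its p-values therefore rest on the spread between libraries within groups, pooled over the 7 groups of a table. For iPSC these libraries are clones.

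The libraries held 6540256 to 20783265 counts. A level of 3 counts in a library corresponds to 0.139 to 0.443 CPM, and intervals from counts cover counting error alone. Mitochondrial genes took 1.75% to 12.2% of the counts and exceeded 8% in 2 libraries, replicate 1 of the naivex2 day 10 cells and replicate 1 of the WT iPSC. The summed level of the 41 genes set some libraries apart within their group. It was 9072, 14605 and 8014 CPM in the 3 naivex2 iPSC lines, where the second line stood highest. It was 14163, 26334 and 21518 CPM in the totalx2 day 10 GFP+ cells and 11529, 16403 and 21772 CPM in the GFP- cells of that day, where line 1 stood lowest in both. Fibroblast markers outside the 41 genes (20 genes, among them Thy1, Pdgfra, Pdgfrb, Prrx1, Twist2 and Vim, and with 1 matrix protein, Dpt) followed the same order of libraries: they summed to 649, 1169 and 571 CPM in the naivex2 iPSC lines. Vim alone made up most of this sum in MEF, with a mean of 6060 CPM where the list summed to 8577 to 9031 CPM. In the naivex2 iPSC lines Vim stood at 6.95% to 12.7% of that mean. In these bulk libraries, fewer cells of a type and less RNA per cell cannot be told apart.

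Promoter sequence is shown for 1 gene that was lower and 1 gene that was higher in day 10 cells than in MEF (values follow). Promoters of 26 of the 41 genes, from RefSeq (GRCm38.p6), were used. The bases before the start site of Col3a1, the collagen III chain of loose connective tissue, and of Lama5, a laminin chain of epithelial and embryonic basement membranes, are given 5′ to 3′ on the gene's strand. Capitals mark TATAAA and GGGCGG, with CCGCCC as the reading of GGGCGG on the other strand. The stretches are chr1:45311288-45311537 (plus strand) and chr2:180225860-180226109 (minus strand).
Col3a1: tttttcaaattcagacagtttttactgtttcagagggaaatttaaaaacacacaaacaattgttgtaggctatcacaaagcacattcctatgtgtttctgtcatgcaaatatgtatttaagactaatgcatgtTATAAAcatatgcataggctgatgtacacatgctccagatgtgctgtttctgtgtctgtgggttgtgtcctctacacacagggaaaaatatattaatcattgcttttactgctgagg
Lama5: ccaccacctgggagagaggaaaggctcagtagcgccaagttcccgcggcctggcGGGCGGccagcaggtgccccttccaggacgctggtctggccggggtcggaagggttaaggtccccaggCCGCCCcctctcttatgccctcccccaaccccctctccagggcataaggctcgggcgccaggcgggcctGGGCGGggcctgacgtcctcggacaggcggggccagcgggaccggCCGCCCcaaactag
The Col3a1 stretch holds 1 TATAAA and 0 GGGCGG, and the Lama5 stretch holds 4 GGGCGG and 0 TATAAA. The pair does not stand for all lower and higher genes. Promoters of Col8a1 and Igfbp7, which were also lower in day 10 cells, each hold 4 GGGCGG and 0 TATAAA. Over the 250 bases before the start and on either strand, GGGCGG lies in 17 of the 26 member promoters and in 32.9% of all 27025 promoters. TATAAA lies in 3 of the 26 and in 13% of all promoters, and CCAAT in 9 of the 26 and in 34.5% of all promoters. A match describes the letters of the window and says nothing about a bound factor.

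Day 10 cells were set against the MEF they came from to see how far the matrix programme of the fibroblast was left behind once Tet1-mCherry was on. The 41 genes together summed to 8172, 8192 and 7812 CPM in day 10 mCherry+/GFP- cells, against 83306, 81152 and 83437 CPM in MEF, so the libraries of the groups lay far apart. Of the 41 genes, 36 fell, 2 rose (Lama1 and Lama5) and 3 did not pass the test (Dcn, Lamc1 and Lum), where 76.4% of all genes tested were called (38.8% higher and 37.6% lower). The median log2 fold change of the 41 was -4.18, against 0.06 over all genes tested. Scaling by library totals alone, which moves the median of all genes to 0.343, gave 36 lower and 3 higher.

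The fibril-forming collagens fell without exception, 7 of 7. Col1a1 (chr11:94936224-94953042 in mm10), the main chain of collagen I, had 287, 340 and 218 CPM in day 10 cells, against 8993, 8669 and 8407 CPM in MEF, a log2 change of -4.95 ± 0.42 (edgeR adjusted p = 2.13e-08) and a 30.9-fold lower mean. Col2a1, the collagen of cartilage, showed the largest change of the 41 genes, with 1.51, 1.58 and 1.64 CPM in day 10 cells and 672, 707 and 644 CPM in MEF (log2 -8.73 ± 0.17, adjusted p = 3.48e-20). Col3a1 changed least of the fibrillar chains, with 352, 460 and 267 CPM in day 10 cells and 1575, 1541 and 1437 CPM in MEF. Between these extremes lay Col5a1 and Col5a2, which control the width of collagen I fibrils, at log2 -5.45 and -5.10. The 5 chains of collagens VI, VIII and XII all fell, from -6.23 for Col12a1 to -2.87 for Col6a3.

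The 7 genes of elastic fibres and cross-linking fell together, with a median log2 change of -5.75. Fbln2, a fibulin of elastic fibres and vessel walls, had 22.6, 23.8 and 14.4 CPM in day 10 cells and 1898, 2027 and 1914 CPM in MEF (-6.58 ± 0.38, adjusted p = 1.09e-10). Lox, the enzyme that starts collagen and elastin cross-links, had a log2 change of -6.49, and Eln, elastin itself, -5.75. The adhesive and matricellular glycoproteins also fell, 6 of 6, but over a wide span. Tnc, a glycoprotein of embryonic and healing tissue, was at 22.3, 20.5 and 11.9 CPM in day 10 cells and 4517, 4804 and 4744 CPM in MEF (-8.01 ± 0.65, adjusted p = 1.49e-08). Thbs1, a matricellular regulator of TGF-beta activation, was at 111, 92.9 and 68.0 CPM in day 10 cells and 14311, 12812 and 16031 CPM in MEF (-7.31 ± 0.63, adjusted p = 2.92e-08).

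Fibronectin stood apart from those genes. Fn1 (chr1:71585520-71653200), which bridges integrins and collagen and is also made by embryonic cells, kept 2979, 2391 and 2637 CPM in day 10 cells, against 9924, 9786 and 9895 CPM in MEF (-1.89 ± 0.09, adjusted p = 8.19e-14), a 3.70-fold lower mean. Sparc, a collagen-binding glycoprotein, fell by more, with a log2 change of -4.28 ± 0.23 (adjusted p = 6.15e-12). Of the 5 proteoglycans, Bgn, Vcan and Fmod fell, at log2 -4.67, -4.56 and -2.33. Dcn and Lum, small leucine-rich proteoglycans of adult connective tissue, were low in both groups: Dcn had 22.5, 18.005 and 11.4 CPM in day 10 cells and 29.5, 28.0 and 23.8 CPM in MEF, and Lum had 13.1, 11.5 and 6.55 CPM in day 10 cells and 8.03, 8.75 and 5.55 CPM in MEF. Igfbp5 and Igfbp7 both fell, Igfbp5 by 3.34 ± 0.45 on the log2 scale (adjusted p = 4.08e-06).

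The basement membrane genes split. Lama1 (chr17:67697265-67822645), the alpha chain of the first laminin of the embryo, had 316, 279 and 341 CPM in day 10 cells and 17.2, 16.8 and 15.9 CPM in MEF, a rise of 4.23 ± 0.22 on the log2 scale (adjusted p = 2.5e-12). Lama5 had 242, 406 and 439 CPM in day 10 cells and 206, 195 and 207 CPM in MEF (0.84 ± 0.15, adjusted p = 5.11e-05). The gamma chain Lamc1, shared by most laminins, had 767, 748 and 770 CPM in day 10 cells and 828, 800 and 814 CPM in MEF and did not pass the test. The other 6 basement membrane genes fell. The collagen IV chains Col4a1 and Col4a2, neighbours in opposite directions on chromosome 8, did so by 4.35 ± 0.24 (adjusted p = 1.11e-11) and 4.18 on the log2 scale. The beta chain Lamb1 fell by 2.04 ± 0.13 (adjusted p = 1.82e-11), the nidogen Nid1 by 2.36, the perlecan core protein Hspg2 by 1.49 and Lama4, a laminin chain of vessels and mesenchyme, by 1.02.

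**Figure D1:**
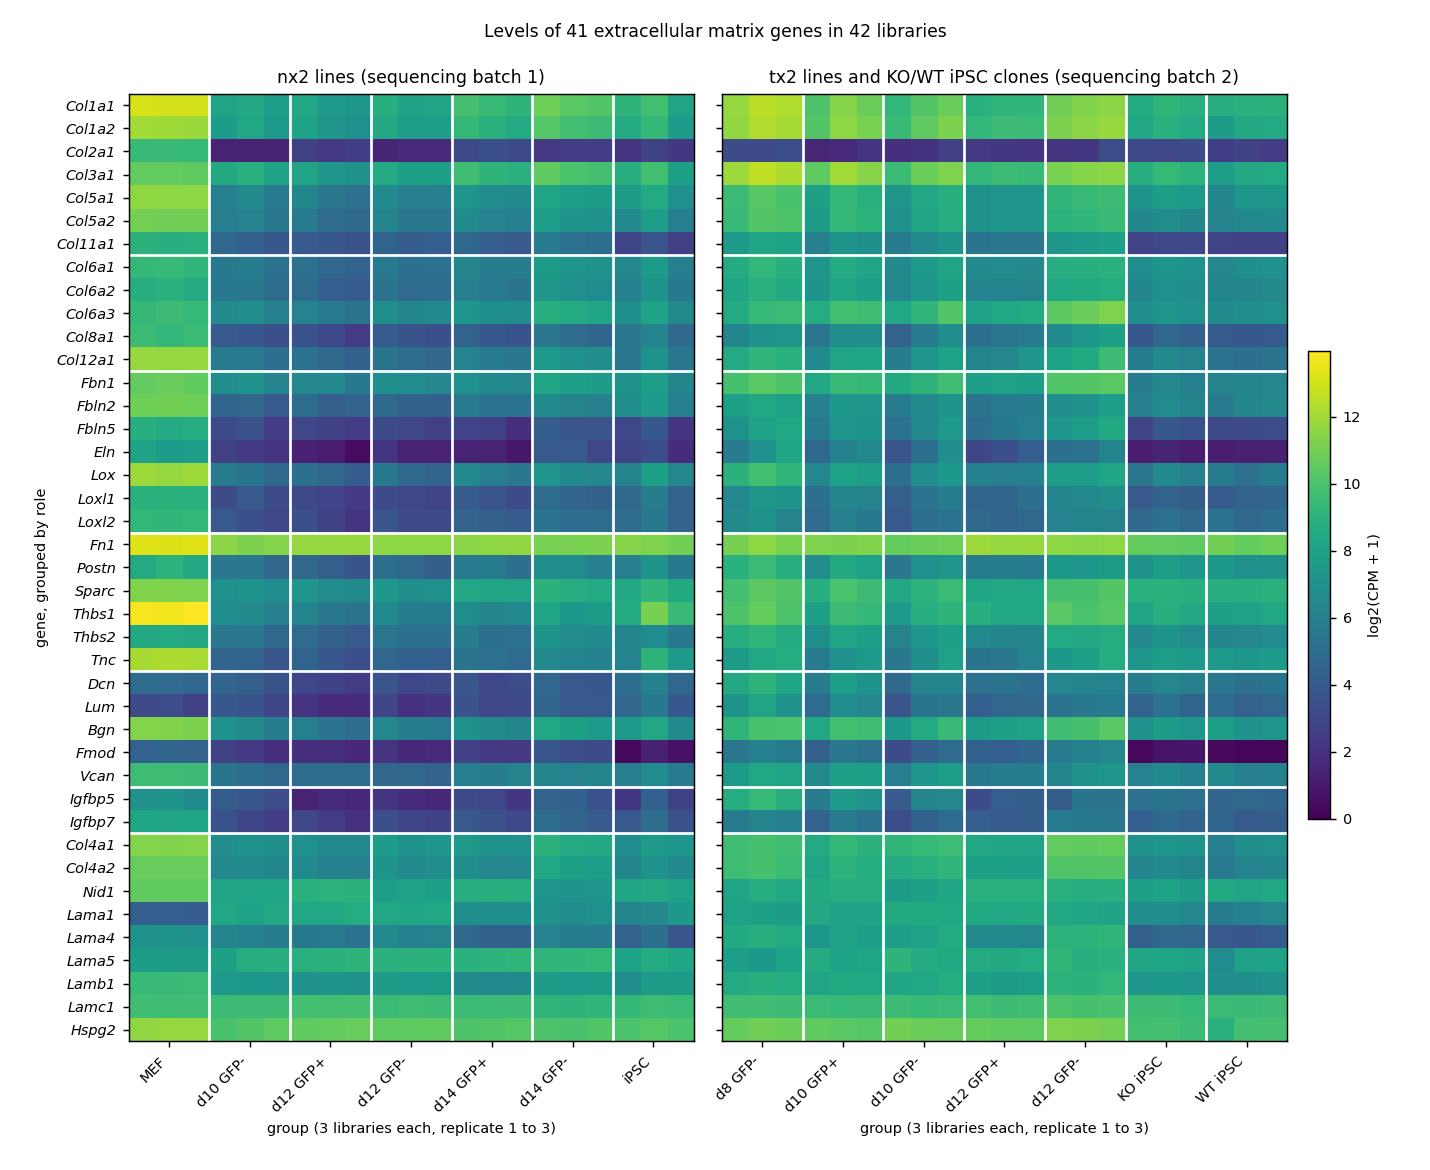
Heat map of log2(CPM + 1) for the 41 genes (1 line a gene, grouped by role with white lines between roles) in all 42 libraries, 3 columns a group, with naivex2 (nx2) on the left and totalx2 (tx2) with the KO and WT iPSC on the right. Most collagen lines are brightest in MEF, while Lama1 is brighter in day 10 cells, at 279 to 341 CPM, than in MEF, at 15.9 to 17.2 CPM.

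Set as a share of the MEF mean, the matrix genes spanned a wide range. Over the 40 genes with at least 10 CPM in MEF (Lum lies below that), the median gene of day 10 cells stood at 5.34% of its MEF level, with Col2a1 at 0.234% and Lama1 at 1873% as the extremes. Of the 40, 27 were under 10% and 2 over 100%. Among those under 10%, Tnc stood at 0.389%, Thbs1 at 0.629%, Col1a1 at 3.24% and Col4a1 at 4.91%, while Col3a1 lay above it at 23.7%. The 15 fibroblast markers with at least 10 CPM in MEF had a median of 2.59% in the same libraries, from 0.464% for Twist2 to 23.6% for Tbx18. Over all 20 markers the summed level was 177 to 269 CPM in day 10 cells and 8577 to 9031 CPM in MEF, and the 3 markers with no count in day 10 cells were low in MEF as well, with means of 0.107 CPM for Tcf21 and 3.78 CPM for Foxf2 and no count for Foxf1. Of the 18 markers tested, 16 fell and 2 rose, Dpt and Ccl11, which are not among the 15 above, at means of 5.15 and 1.65 CPM in day 10 cells and 1.21 and 0.435 CPM in MEF. The part of leftover fibroblasts in the remaining matrix transcripts was not tested.

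**Figure D2:**
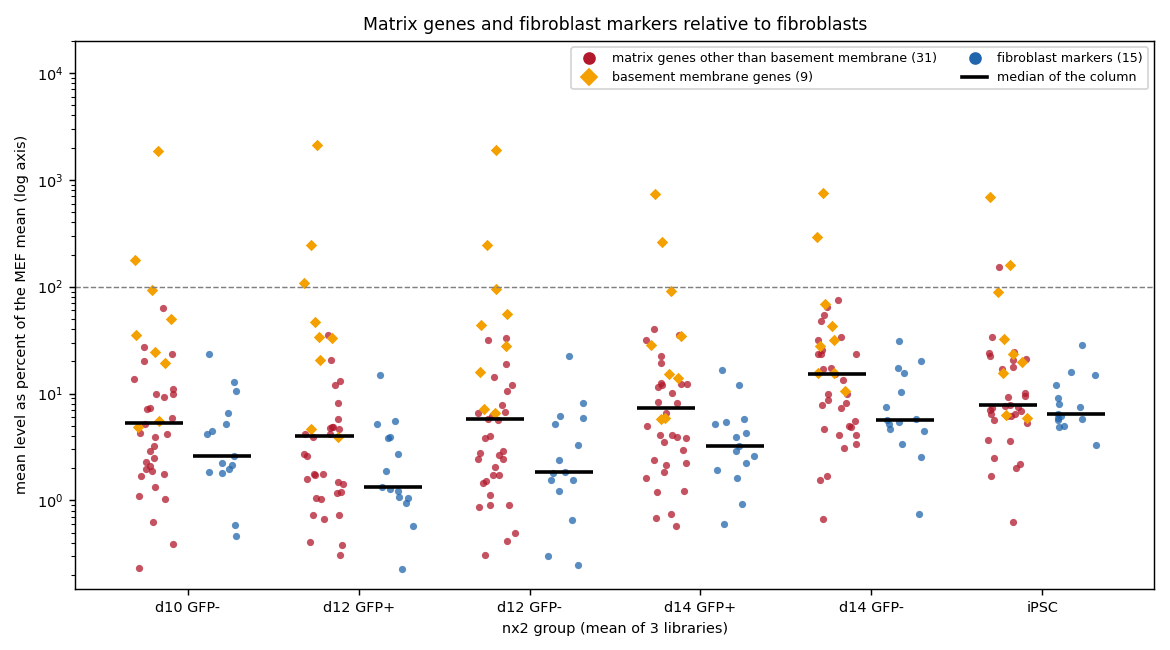
Level as a percent of the MEF mean on a log axis in the naivex2 groups, for the 40 matrix genes (31 in red, the 9 of the basement membrane as orange diamonds) and the 15 fibroblast markers (blue) with at least 10 CPM in MEF. Black lines are medians and the dashed line is 100%. The median matrix gene lies at 5.34% in day 10 cells and at 15.4% in day 14 GFP- cells, and the median marker at 2.59% and 5.70%.

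In mCherry+/GFP- cells, the matrix genes changed little by day 12 and were higher by day 14. At day 12, 1 of the 41 rose and 3 fell relative to day 10 (20.2% of all genes tested were called, 10.1% higher and 10.1% lower), with a median log2 change of -0.07. Igfbp5 showed the clearest change, with 3.40, 2.40 and 1.98 CPM at day 12 and 16.6, 12.7 and 8.75 CPM at day 10 (-2.31 ± 0.56, adjusted p = 0.00834). The calls for Lum (-1.28 ± 0.44, adjusted p = 0.0476), Nid1 (-0.28 ± 0.08, adjusted p = 0.0213) and Lama5 (0.45 ± 0.15, adjusted p = 0.0412) were lost when single libraries were left out. Without day 10 replicate 1, which had over 8% mitochondrial counts, the adjusted p was 0.168 for Lum and 0.103 for Lama5. Lum was also lost without day 10 replicate 2 (0.115) or day 12 replicate 2 or 3 (0.17 and 0.149), Nid1 without day 10 replicate 3 (0.0751) or day 12 replicate 1 or 3 (0.14 and 0.0786), and Lama5 without day 12 replicate 1, 2 or 3 (0.077, 0.0846 and 0.0819). With the embryo line as a block, 2 rose and 5 fell, where 21.6% of all genes were called. Scaling by library totals alone gave 3 higher and 1 lower. The count was 2 without day 12 replicate 1 or 2, 1 without day 12 replicate 3 and 7 without day 10 replicate 3.

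At day 14, 29 of the 41 genes rose relative to day 10 in GFP- cells, 3 fell and 9 did not pass, where 36.8% of all genes tested were called (20.3% higher and 16.5% lower). The median change was 1.38 on the log2 scale, against 0.03 over all genes. Scaling by library totals gave a median over all genes of 0.123, with 30 higher and 3 lower. All 7 fibrillar collagens rose, as did all 5 chains of collagens VI, VIII and XII. Col1a1 had 1906, 1341 and 1135 CPM at day 14 and 287, 340 and 218 CPM at day 10 (2.38 ± 0.38, adjusted p = 0.00018). Col1a2, the second chain of collagen I, rose by 2.00 ± 0.39 (adjusted p = 0.000889), Col6a3 by 1.98 ± 0.33 (adjusted p = 0.000292) and Tnc by 2.14 ± 0.53 (adjusted p = 0.00533). In each of these the lowest day 14 library stood above the highest day 10 library. Even so, the day 14 level of Col1a1 was 16.8% of that in MEF, and that of Tnc 1.71%.

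Basement membrane genes again went both ways between days 10 and 14. Col4a1 had 500, 378 and 348 CPM at day 14 and 114, 146 and 125 CPM at day 10 (1.67 ± 0.21, adjusted p = 1.33e-05), and Col4a2 and Lama5 rose with it, by 1.51 and 0.71. Lama1 had 137, 111 and 127 CPM at day 14 and 316, 279 and 341 CPM at day 10 (-1.32 ± 0.19, adjusted p = 3.05e-05). Nid1 had 159, 150 and 161 CPM at day 14 and 289, 284 and 302 CPM at day 10 (-0.89 ± 0.08, adjusted p = 1.1e-07). Lamc1 fell by 0.44. The first laminin trimer of the embryo joins the chains of Lama1, Lamb1 and Lamc1, and of these Lamb1, at 0.20 on the log2 scale, did not pass the test.

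Markers of other cells moved over the same days. Of the 18 fibroblast markers tested, 8 rose and 0 fell between day 10 and day 14 GFP- cells (median 0.79), and the list summed to 421 to 620 CPM at day 14 and 177 to 269 CPM at day 10. Of 9 trophectoderm markers tested, 8 rose (median 2.74), with sums of 502 to 587 CPM at day 14 and 230 to 252 CPM at day 10. Of 8 smooth muscle markers, 7 rose (median 2.07), with sums of 189 to 255 CPM at day 14 and 34.7 to 45.7 CPM at day 10. Tcf21, Foxf1 and Foxf2 had no count on either day, while every trophectoderm and smooth muscle marker had counts on both. The part of these cells in the higher matrix levels was not tested.

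Cells that had turned on Pou5f1-GFP were then set against GFP- cells of the same day. At day 12 of naivex2, 2 of the 41 genes rose in GFP+ cells and 3 fell, where 16.6% of all genes tested were called (9.93% higher and 6.69% lower), and the median log2 difference was -0.46. Nid1 (chr13:13437602-13512275), which joins laminin to collagen IV, had 482, 513 and 507 CPM in GFP+ cells and 222, 261 and 238 CPM in GFP- cells (1.06 ± 0.08, adjusted p = 1.95e-08). Col2a1 was also higher, at 5.32, 4.25 and 5.08 CPM in GFP+ cells and 1.70, 2.28 and 2.31 CPM in GFP- cells (1.19 ± 0.19, adjusted p = 0.000146). Col4a1, Lama4 and Lamb1 fell by 0.74 ± 0.21, 0.77 ± 0.25 and 0.45 ± 0.13 (adjusted p = 0.0232, 0.0422 and 0.023). Those 3 calls were lost in several alternatives, with adjusted p of 0.102, 0.143 and 0.0711 without GFP- replicate 1 and above 0.05 also without GFP- replicate 3 or GFP+ replicate 3. Col4a1 and Lama4 lost theirs without GFP+ replicate 2 as well (0.085 and 0.0591), and Lama4 and Lamb1 without GFP+ replicate 1 (0.0851 and 0.0645). With the embryo line as a block, 2 rose and 6 fell (17.6% of all genes called). The count was 2 without GFP- replicate 1, GFP- replicate 3 or GFP+ replicate 3 and 3 without GFP+ replicate 2. Of 9 trophectoderm markers tested, 6 fell in GFP+ cells and 0 rose (median -1.01), with sums of 136 to 144 CPM in GFP+ cells and 266 to 289 CPM in GFP- cells, and Cdx2 and Hand1 had no count in GFP+ cells. Of 7 epithelial markers 3 fell and 1 rose (median -0.37), and of 18 fibroblast markers 0 were called (median -0.32, sums of 145 to 216 CPM in GFP+ cells and 195 to 275 CPM in GFP- cells). Endothelial markers summed to 120 to 141.5 CPM in GFP+ cells and 50.8 to 58.8 CPM in GFP- cells. Chondrocyte markers summed to 10.9 to 18.7 CPM in GFP+ cells and 6.075 to 6.575 CPM in GFP- cells. Their part in the matrix values was not tested.

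At day 14 of naivex2, 24 of the 41 genes fell in GFP+ cells relative to GFP- cells, 4 rose and 13 did not pass, where 31.3% of all genes tested were called (14.4% higher and 16.9% lower). The median difference was -1.03 on the log2 scale. All 5 chains of collagens VI, VIII and XII fell, as did 6 of 7 genes of elastic fibres and cross-linking. Eln had 1.57, 1.63 and 0.863 CPM in GFP+ cells and 14.1, 13.9 and 6.83 CPM in GFP- cells (-3.11 ± 0.48, adjusted p = 0.000115). Col6a3, the large chain of collagen VI, had 159, 123 and 110 CPM in GFP+ cells and 432, 366 and 305 CPM in GFP- cells (-1.50 ± 0.33, adjusted p = 0.00258). Of the basement membrane, Col4a1 had 184, 137 and 130 CPM in GFP+ cells and 500, 378 and 348 CPM in GFP- cells (-1.44 ± 0.21, adjusted p = 5.72e-05). Lama4 fell by 1.49 ± 0.26 (adjusted p = 0.00032) and Lamb1 by 1.01 ± 0.13 (adjusted p = 7.97e-06).

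The 4 genes that rose in day 14 GFP+ cells were Nid1, Col2a1, Fn1 and Lamc1. Nid1 had 408, 438 and 419 CPM in GFP+ cells and 159, 150 and 161 CPM in GFP- cells (1.43 ± 0.08, adjusted p = 2.35e-10). Fn1 had 3028, 3066 and 3214 CPM in GFP+ cells and 2280, 2318 and 2418 CPM in GFP- cells (0.41 ± 0.09, adjusted p = 0.00128). Lamc1 rose by 0.40, and Col2a1 by 0.89 ± 0.15 at under 10 CPM in all these libraries (adjusted p = 0.000122). Lama1 and Lama5, at log2 -0.02 and -0.17, did not pass the test.

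Some calls at day 14 were lost when 1 library was left out, while the direction stayed. Over all alternatives the log2 difference ran between -1.22 and -0.76 for Col1a1, between -1.66 and -1.15 for Igfbp5 and between -1.65 and -1.19 for Fbln5. Col1a1 had 926, 693 and 551 CPM in GFP+ cells and 1906, 1341 and 1135 CPM in GFP- cells, which do not overlap, but its log2 difference of -1.01 ± 0.36 (adjusted p = 0.0447) lost its call in 8 of 14 alternatives. Among them it reached adjusted p = 0.183 without GFP- replicate 1, 0.157 without GFP+ replicate 3, 0.121 without GFP+ replicate 2 and 0.0703 without GFP- replicate 2. Igfbp5 (-1.43 ± 0.48, adjusted p = 0.0325) lost its call without GFP- replicate 1 or 2 or GFP+ replicate 2 or 3, with adjusted p from 0.0799 to 0.133. Fbln5 (-1.49 ± 0.40, adjusted p = 0.00956) reached 0.0532 without GFP+ replicate 3. The count of called genes was 16 without GFP- replicate 1, 17 without GFP+ replicate 2 and 15 without GFP+ replicate 3. Of 18 fibroblast markers tested, 8 fell in GFP+ cells and 0 rose (median -0.92), with sums of 244 to 347 CPM in GFP+ cells and 421 to 620 CPM in GFP- cells. All 9 trophectoderm markers fell (median -2.51), with sums of 144 to 160 CPM in GFP+ cells and 502 to 587 CPM in GFP- cells. Smooth muscle sums were lower too, at 93.3 to 115 CPM in GFP+ cells and 189 to 254.5 CPM in GFP- cells. Endothelial sums were higher, at 101 to 121 CPM in GFP+ cells and 46.6 to 60.5 CPM in GFP- cells. So were chondrocyte sums, at 16.1 to 21.3 CPM in GFP+ cells and 8.115 to 9.351 CPM in GFP- cells. The part of all these cells in the difference was not tested.

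Whether the GFP difference itself changed between days 12 and 14 was tested as a difference of differences. It was called for 0 of the 41 genes by edgeR, where 1.54% of all genes tested were called (0.688% higher and 0.855% lower), with a median of -0.57 over the 41. At an unadjusted p under 0.05 there were 9 genes, 7 of them with a lower GFP difference at day 14, and the smallest adjusted p was 0.138 (Nid1, 0.37 on the log2 scale). DESeq2 called 1, and a fit of the contrast's groups alone called 4.

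Within GFP+ cells, more of the matrix genes rose than fell between day 12 and day 14, but their summed levels overlapped. The 41 genes summed to 10557, 9516 and 9393 CPM at day 14 and 9437, 8753 and 8972 CPM at day 12. Those of the basement membrane summed to 3300.9, 3304.7 and 3463 CPM at day 14 and 4088.9, 4171 and 4389.5 CPM at day 12. Of the 41 genes, 20 rose, 6 fell and 15 did not pass, where 30.5% of all genes tested were called (14.5% higher and 16% lower). Col1a1 had 926, 693 and 551 CPM at day 14 and 333, 179 and 167 CPM at day 12 (1.68 ± 0.37, adjusted p = 0.00299), and Col3a1 had 813, 541 and 474 CPM at day 14 and 288, 166 and 138 CPM at day 12 (1.63 ± 0.40, adjusted p = 0.00629). Sparc rose by 1.34 ± 0.20 (adjusted p = 9.77e-05), and Loxl2, a lysyl oxidase relative that acts on collagen IV, by 1.49 ± 0.37 (adjusted p = 0.0058). The 6 that fell were all of the basement membrane: Lama1 (-1.53 ± 0.19, adjusted p = 1.02e-05), Lama4, Lamb1 (-0.56 ± 0.13, adjusted p = 0.00303), Hspg2 (-0.45 ± 0.10, adjusted p = 0.00215), Lamc1 and Nid1. The call for Igfbp5 (1.72 ± 0.63, adjusted p = 0.0495) was lost without any 1 of the day 12 replicates or without day 14 replicate 1 or 2, with adjusted p from 0.0931 to 0.139. The count was 13 without day 14 replicate 1 and 12 without day 12 replicate 2 or without day 12 replicate 3. Of 18 fibroblast markers 3 rose (median 0.81), with sums of 244 to 347 CPM at day 14 and 145 to 216 CPM at day 12.

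The naivex2 iPSC lines were set against MEF and against the day 14 GFP+ cells. Relative to MEF, 37 of the 41 genes fell, 3 rose and 1 did not pass, where 77.3% of all genes tested were called (37.9% higher and 39.4% lower), and the median log2 change was -3.67, against 0.02 over all genes. Scaling by library totals moved the median of all genes to 0.313 and gave 36 lower and 4 higher. Col2a1 again changed most, with 3.25, 5.70 and 3.78 CPM in iPSC and 672, 707 and 644 CPM in MEF (-7.29 ± 0.15, adjusted p = 9.97e-20). Col11a1, a minor fibrillar chain of cartilage, changed by -5.86 ± 0.31 (adjusted p = 1.85e-11), Fbln5 by -5.61 ± 0.37 (adjusted p = 5.23e-10) and Col12a1 by -5.52 ± 0.45 (adjusted p = 1.39e-08). Col1a1 was at 546, 843 and 289 CPM in iPSC and 8993, 8669 and 8407 CPM in MEF (-3.96 ± 0.40, adjusted p = 1.85e-07), and Fn1 at 2729, 2507 and 2031 CPM in iPSC and 9924, 9786 and 9895 CPM in MEF (-2.03 ± 0.09, adjusted p = 2.79e-14). The 3 that rose were Lama1 (2.79 ± 0.21, adjusted p = 5.82e-10), Lama5 (0.67) and Lum, which had 23.6, 48.5 and 13.6 CPM in iPSC and 8.03, 8.75 and 5.55 CPM in MEF (1.95 ± 0.40, adjusted p = 0.000236). Dcn stood at 31.9, 65.9 and 25.7 CPM in iPSC and 29.5, 28.0 and 23.8 CPM in MEF and did not pass.

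Relative to day 14 GFP+ cells, 12 of the 41 genes rose in the iPSC lines, 6 fell and 23 did not pass, where 46.8% of all genes tested were called (24.3% higher and 22.5% lower). The share of the 41 called in either direction was near that of all genes. Thbs1 had 382, 2176 and 672 CPM in iPSC and 123, 81.7 and 91.6 CPM in day 14 GFP+ cells (3.45 ± 0.53, adjusted p = 7.97e-05). Tnc had 75.2, 541 and 187 CPM in iPSC and 40.6, 36.2 and 28.4 CPM in day 14 GFP+ cells (2.94 ± 0.52, adjusted p = 0.000312). Dcn rose by 2.12 ± 0.37 (adjusted p = 0.000152), Lum by 1.76 ± 0.40 (adjusted p = 0.00159) and Lamb1 by 0.77 ± 0.13 (adjusted p = 8.63e-05). In Thbs1, Tnc, Dcn and Lum the second iPSC line was the highest of the 3, and each iPSC line stood above each day 14 library. Among the 6 that fell were Fmod, at 0.212, 1.43 and 0.620 CPM in iPSC and 5.88, 4.03 and 4.08 CPM in day 14 GFP+ cells (-2.55 ± 0.39, adjusted p = 2.28e-05), Col2a1 (-0.96 ± 0.15, adjusted p = 3.62e-05) and Fn1 (-0.36 ± 0.09, adjusted p = 0.0023). Of 18 fibroblast markers, 11 rose and 1 fell in the iPSC lines (median 1.38), with sums of 571 to 1169 CPM in iPSC and 244 to 347 CPM in day 14 GFP+ cells. The iPSC lines had been grown on feeder cells and depleted of them, and the part of remaining feeders was not tested. In these lines the median matrix gene stood at 7.75% and the median fibroblast marker at 6.42% of its MEF level. These are medians of means over 3 lines that differed, with Col1a1 at 3.32% to 9.71% and Vim at 6.95% to 12.7%.

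**Figure D3:**
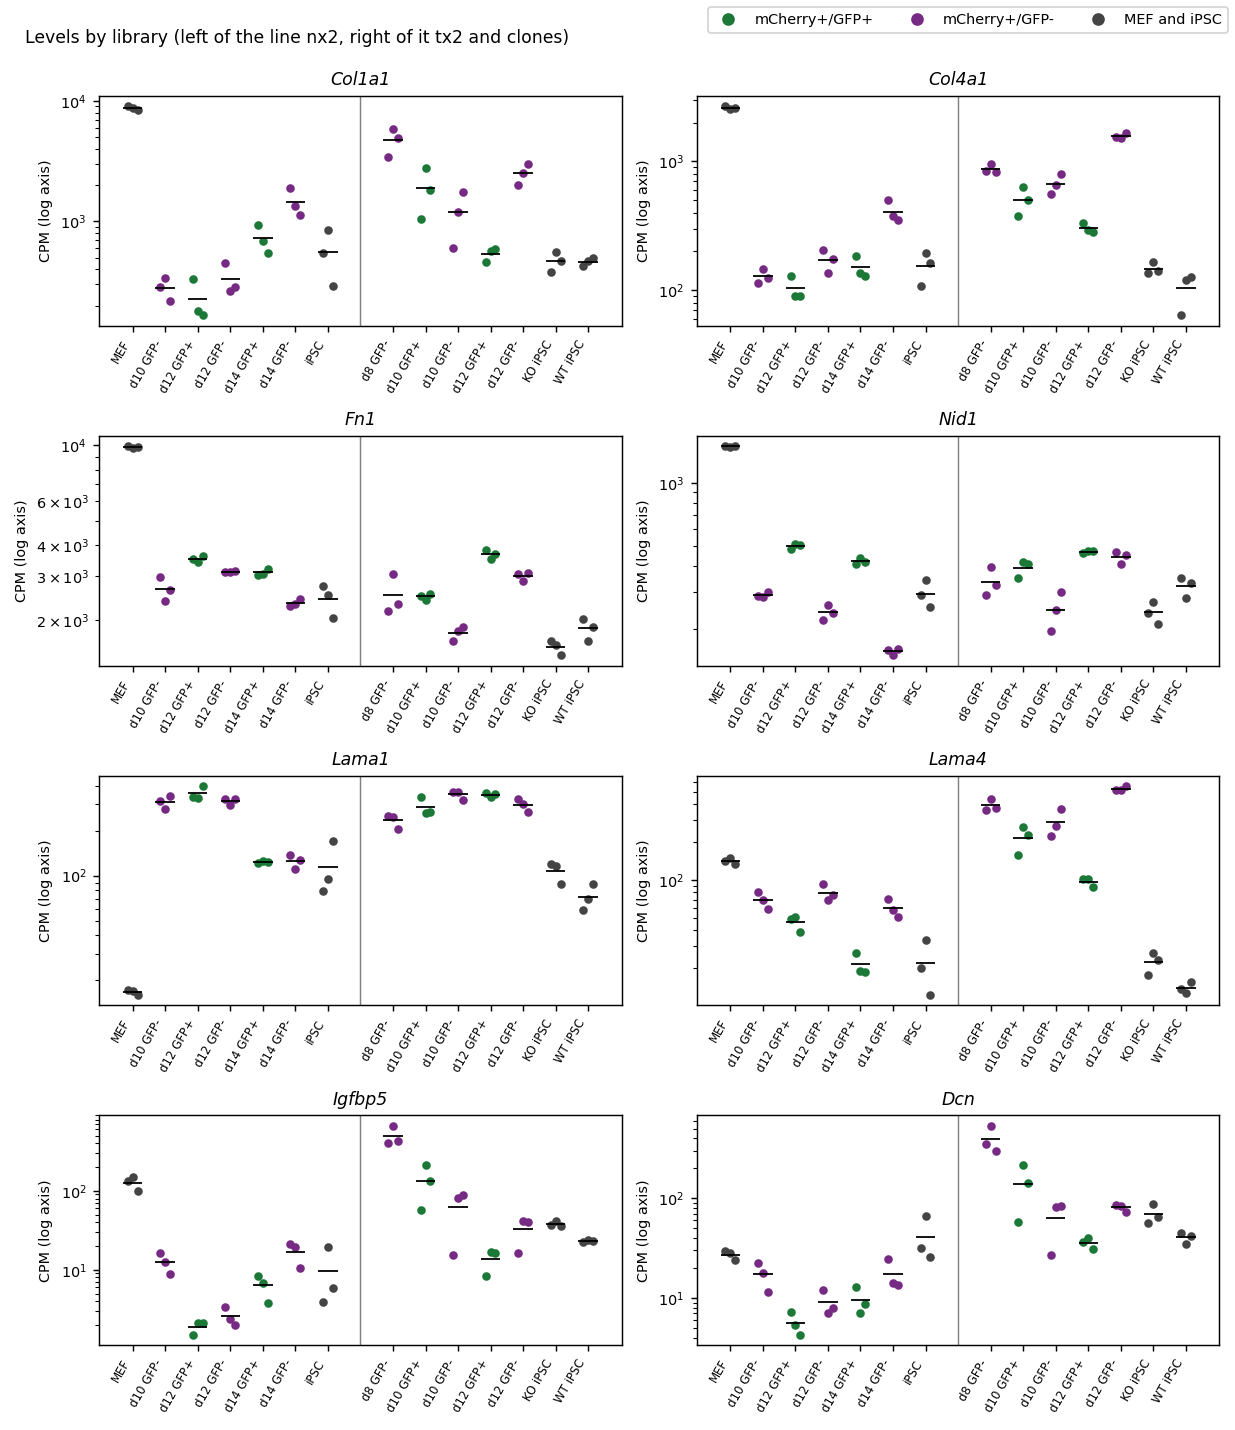
Level in CPM on a log axis of Col1a1, Col4a1, Fn1, Nid1, Lama1, Lama4, Igfbp5 and Dcn, 1 panel a gene, with a point for each library (green mCherry+/GFP+, purple mCherry+/GFP-, grey MEF and iPSC) and a black bar for the group mean. A vertical line parts naivex2 (nx2) from totalx2 (tx2) and the KO and WT clones. Nid1 stands at 408 to 438 CPM in day 14 GFP+ naivex2 cells and at 150 to 161 CPM in day 14 GFP- cells.

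In totalx2, the matrix genes were followed from day 8 in mCherry+/GFP- cells. At day 10, 27 of the 41 genes fell relative to day 8, 2 rose (Lama1 and Lama5) and 12 did not pass, where 20.7% of all genes tested were called (10% higher and 10.7% lower) and the median log2 change was -1.33. Igfbp5 had 15.4, 81.8 and 88.8 CPM at day 10 and 398, 666 and 423 CPM at day 8 (-3.00 ± 0.55, adjusted p = 0.00115). Dcn had 27.2, 81.3 and 83.1 CPM at day 10 and 349, 534 and 297 CPM at day 8 (-2.62 ± 0.41, adjusted p = 0.00034), and Lox and Lum fell by 2.60 ± 0.48 and 2.50 ± 0.47 (adjusted p = 0.00117 and 0.00138). All 7 fibrillar collagens fell, with Col1a1 at 600, 1193 and 1768 CPM at day 10 and 3439, 5828 and 4965 CPM at day 8 (-2.00 ± 0.34, adjusted p = 0.000586). Fn1 fell by 0.50 ± 0.11 (adjusted p = 0.00305) and Sparc by 1.11 ± 0.26 (adjusted p = 0.00545). Lama1 rose to 362, 364 and 323 CPM at day 10, against 250, 248 and 206 CPM at day 8 (0.57 ± 0.14, adjusted p = 0.00647). Lama5 rose by 0.93 ± 0.24 (adjusted p = 0.0113), a call lost without day 10 replicate 1 (0.07) or day 8 replicate 2 (0.0718). Of 17 fibroblast markers tested, 13 fell (median -0.94), with sums of 1211 to 2206 CPM at day 10 and 2708 to 3383 CPM at day 8, and Tcf21 and Foxf1 had no count on either day.

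By day 12 the GFP- cells of totalx2 were closer to day 8 again. Of the 41 genes, 6 rose relative to day 8, 7 fell and 28 did not pass, where 31.6% of all genes tested were called (17.1% higher and 14.5% lower) and the median was -0.16. The called share of the 41 was near that of all genes. With the embryo line as a block, 9 rose and 12 fell (36.3% of all genes called), and scaling by library totals alone gave 8 higher and 6 lower. Igfbp5 (-3.95 ± 0.58, adjusted p = 9.03e-05), Dcn (-2.27 ± 0.40, adjusted p = 0.000417) and Lum (-2.03 ± 0.46, adjusted p = 0.00296) stayed below day 8. Col6a3 had 1398, 1785 and 2495 CPM at day 12 and 375, 656 and 731 CPM at day 8 (1.69 ± 0.38, adjusted p = 0.00245). The other 5 that rose belong to the basement membrane: Lama5 (1.16 ± 0.25, adjusted p = 0.00151), Col4a1 (0.85 ± 0.20, adjusted p = 0.00328), Lamb1 (0.43 ± 0.12, adjusted p = 0.00718), Nid1 (0.40) and Lamc1 (0.31). Col4a1 stood at 1552, 1521 and 1650 CPM at day 12 and 835, 958 and 830 CPM at day 8. The lower value of Col1a1 (-0.92 ± 0.33, adjusted p = 0.0423) lost its call without day 12 replicate 1, 2 or 3 or day 8 replicate 2 or 3, with adjusted p from 0.0529 to 0.166. Trophectoderm markers rose in 8 of 9 tested (median 2.47), with sums of 130 to 201 CPM at day 12 and 40.6 to 71.2 CPM at day 8, and Cdx2 had no count at day 8. Smooth muscle markers rose in 5 of 7 (median 1.24), with sums of 441 to 597 CPM at day 12 and 163 to 261 CPM at day 8, and epithelial markers in 5 of 7 (median 1.73), with sums of 589 to 792 CPM at day 12 and 309 to 484 CPM at day 8. Of the 17 fibroblast markers 1 rose and 4 fell (median 0.04), with sums of 2998 to 3436 CPM at day 12 and 2708 to 3383 CPM at day 8. The part of these cells in the matrix values was not tested.

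The GFP+ cells of totalx2 were set against GFP- cells on days 10 and 12. At day 10, 4 of the 41 genes rose in GFP+ cells, 0 fell and 37 did not pass, where 22.4% of all genes tested were called (13% higher and 9.36% lower) and the median difference was 0.48. Fn1 had 2505, 2412 and 2540 CPM in GFP+ cells and 1655, 1805 and 1880 CPM in GFP- cells (0.48 ± 0.11, adjusted p = 0.00256). Nid1 had 351, 417 and 412 CPM in GFP+ cells and 196, 247 and 301 CPM in GFP- cells (0.67 ± 0.14, adjusted p = 0.00142). Postn, a matricellular protein of periosteum and valves, had 116, 355 and 257 CPM in GFP+ cells and 46.2, 127 and 153 CPM in GFP- cells (1.16 ± 0.37, adjusted p = 0.0297). Igfbp7 had 19.9, 54.5 and 38.9 CPM in GFP+ cells and 9.41, 19.2 and 28.0 CPM in GFP- cells (1.00 ± 0.33, adjusted p = 0.0342). The groups of both genes overlap, but in each of the 3 lines the GFP+ library was the higher, and both calls held with the line as a block. Both lost the call without GFP+ replicate 2 (adjusted p = 0.173 for Postn and 0.226 for Igfbp7), without GFP+ replicate 3 (0.0754 and 0.0826) or without GFP- replicate 1 (0.085 and 0.133), and Igfbp7 also without GFP- replicate 2 (0.0818).

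At day 10 the choice of fit decided how many genes were called. With the embryo line as a block, 11 rose and 1 fell (26.1% of all genes called), and size factors of the relative log expression kind gave 4 higher and 1 lower. The count was 12 without GFP+ replicate 1, 13 without GFP- replicate 3 and 2 without GFP+ replicate 3. Beside these values, all 6 leukocyte markers rose in GFP+ cells (median 3.10), with sums of 50.9 to 151 CPM in GFP+ cells and 10.3 to 25.01 CPM in GFP- cells, and none of the 6 was at 0. All 8 pluripotency markers rose too (median 1.79). Trophectoderm markers summed to 132 to 195 CPM in GFP+ cells and 96.25 to 117 CPM in GFP- cells. Epithelial markers summed to 918 to 1150 CPM in GFP+ cells and 602.5 to 768.7 CPM in GFP- cells. Endothelial markers summed to 75.1 to 92.8 CPM in GFP+ cells and 135 to 138 CPM in GFP- cells. Of 17 fibroblast markers 1 rose and 3 fell (median 0.09), with sums of 749 to 1638 CPM in GFP+ cells and 1211 to 2206 CPM in GFP- cells. Their part in the matrix values was not tested.

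At day 12 of totalx2, 35 of the 41 genes fell in GFP+ cells relative to GFP- cells, 1 rose and 5 did not pass, where 61.6% of all genes tested were called (31.2% higher and 30.4% lower). The median difference was -1.87, against 0.05 over all genes tested. The 41 genes summed to 12661, 12580 and 12961 CPM in GFP+ cells, against 28084, 30007 and 34851 CPM in GFP- cells. Col6a3 had 256, 329 and 389 CPM in GFP+ cells and 1398, 1785 and 2495 CPM in GFP- cells (-2.54 ± 0.39, adjusted p = 2.25e-05). Col1a1 had 459, 568 and 591 CPM in GFP+ cells and 2001, 2533 and 3008 CPM in GFP- cells (-2.22 ± 0.34, adjusted p = 2.31e-05). Fbn1, the fibrillin of elastic microfibrils, fell by 2.38 ± 0.27 (adjusted p = 6.97e-07), Sparc by 1.68 ± 0.26 (adjusted p = 2.49e-05) and Dcn by 1.18 ± 0.41 (adjusted p = 0.0179, but 0.0577 without GFP+ replicate 3).

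Of the 9 basement membrane genes, 6 fell at day 12. Col4a1 had 333, 295 and 284 CPM in GFP+ cells and 1552, 1521 and 1650 CPM in GFP- cells (-2.37 ± 0.21, adjusted p = 1.97e-08). Lama4 had 101, 102 and 88.0 CPM in GFP+ cells and 514, 516 and 555 CPM in GFP- cells (-2.44 ± 0.18, adjusted p = 1.98e-09), and Lamb1 fell by 1.36 ± 0.12 (adjusted p = 1.25e-08). Lama1, Lama5 and Nid1, at 0.22, -0.37 and 0.08, did not pass the test. Fn1 was the 1 gene that rose, with 3817, 3501 and 3665 CPM in GFP+ cells and 3044, 2857 and 3070 CPM in GFP- cells (0.29 ± 0.11, adjusted p = 0.0246). Its call was lost without GFP- replicate 1, 2 or 3 or GFP+ replicate 1 or 3, with adjusted p from 0.0649 to 0.132. Among 17 fibroblast markers all 17 fell (median -2.18), with sums of 560 to 614 CPM in GFP+ cells and 2998 to 3436 CPM in GFP- cells, and Tcf21 and Foxf1 had no count in either. Smooth muscle markers summed to 106 to 149 CPM in GFP+ cells and 441 to 597 CPM in GFP- cells. In the same order, primitive and parietal endoderm markers summed to 31.5 to 43.4 and 105 to 107 CPM. Endothelial markers summed to 91.1 to 96.1 and 153 to 172 CPM. Sums of epithelial, pluripotency and leukocyte markers were higher in GFP+ cells. The part of these cells in the matrix values was not tested.

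The GFP difference in totalx2 changed between days 10 and 12 for most of the set. The difference of differences was negative and called for 34 of the 41 genes, where 27.3% of all genes tested were called (10.6% higher and 16.7% lower), and its median was -2.33. It reached -2.88 ± 0.47 for Col1a1 (adjusted p = 0.000445), -2.80 ± 0.59 for the proteoglycan Bgn (adjusted p = 0.0027), -2.79 ± 0.53 for Postn (adjusted p = 0.00116) and -2.73 ± 0.65 for Lox (adjusted p = 0.00591). Sparc (-2.16 ± 0.37, adjusted p = 0.000525), Col4a1 (-1.96 ± 0.28, adjusted p = 0.000202) and Lamb1 (-1.25 ± 0.16, adjusted p = 0.000106) lay lower in size. Nid1, called at -0.58, was the smallest of the 34. The 7 genes that did not pass were Eln, Fn1, Hspg2, Col2a1, Lama1, Lama5 and Lamc1. The call for Igfbp5 (-2.33 ± 0.78, adjusted p = 0.0356) was lost without day 10 GFP+ replicate 2 or 3, day 12 GFP+ replicate 1, 2 or 3 or day 12 GFP- replicate 2 or 3, with adjusted p from 0.05 to 0.109. Of 17 fibroblast markers 16 were called negative too (median -2.10).

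**Figure D4:**
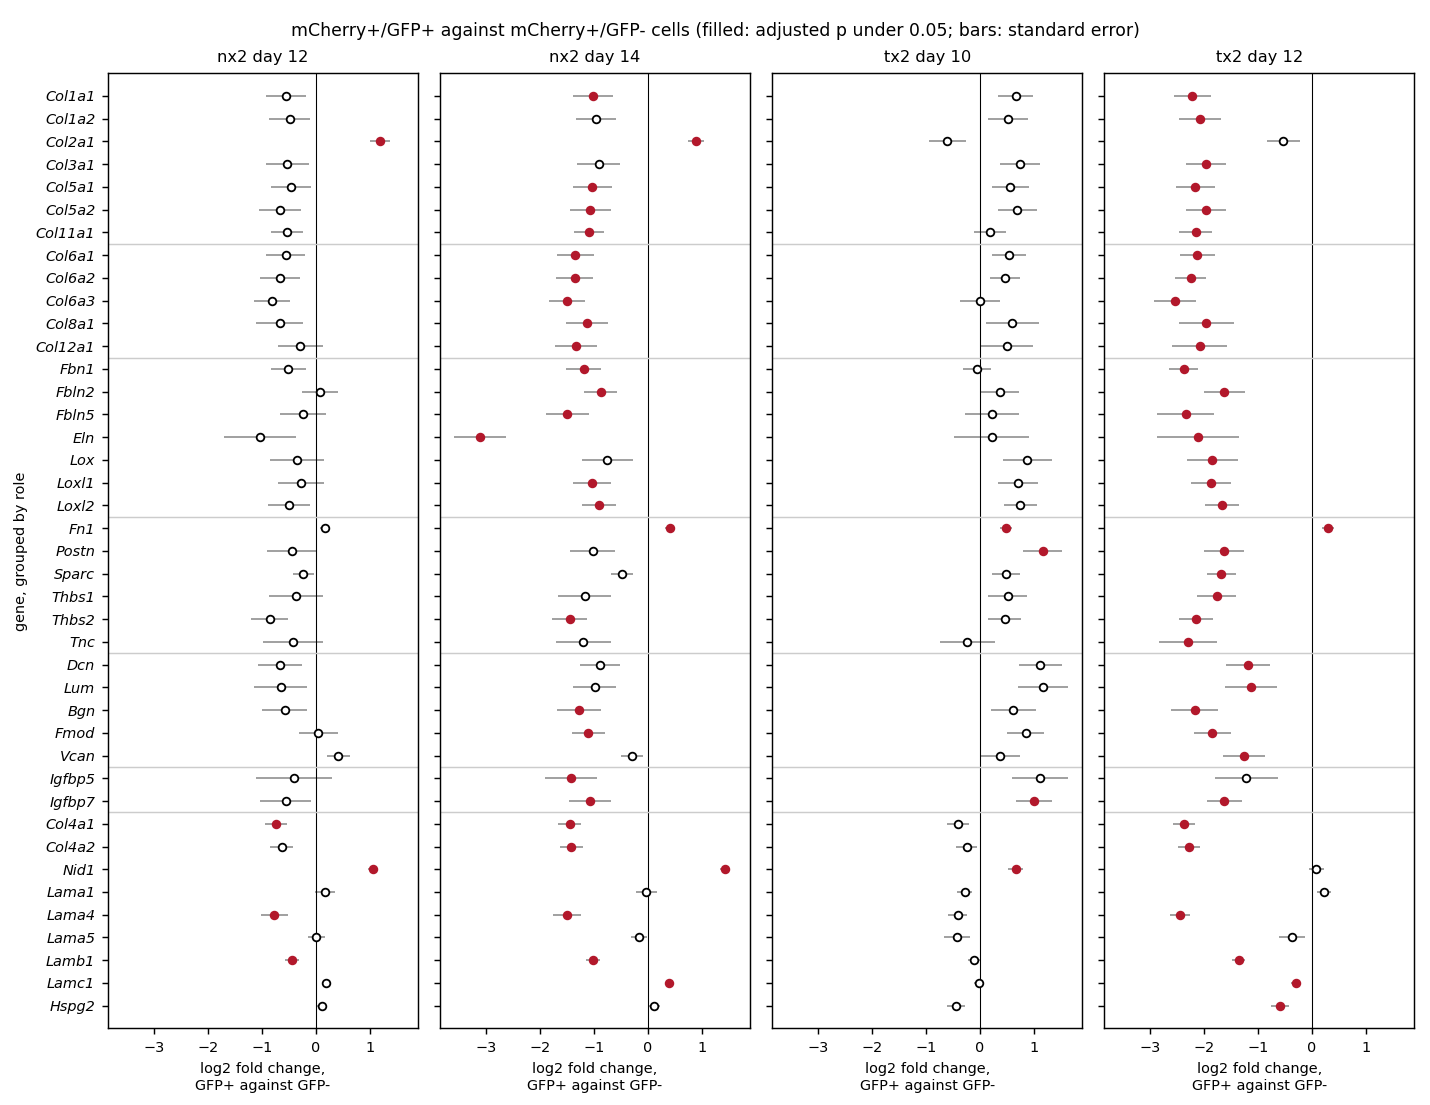
Log2 difference of GFP+ over GFP- cells for each of the 41 genes, grouped by role, in 4 panels for days 12 and 14 of naivex2 and days 10 and 12 of totalx2. Bars are standard errors and filled points have an adjusted p under 0.05. In totalx2 Col1a1 lies at 0.66 on day 10 and at -2.22 on day 12, while Lama1 lies at -0.28 and 0.22.

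GFP+ cells of totalx2 also held fewer matrix transcripts at day 12 than at day 10. Of the 41 genes 28 fell, 1 rose and 12 did not pass, where 25.1% of all genes tested were called (12.2% higher and 12.9% lower). Igfbp5 had 8.32, 16.7 and 16.5 CPM at day 12 and 56.6, 211 and 135 CPM at day 10 (-3.28 ± 0.59, adjusted p = 0.000843). Col3a1 had 617, 752 and 686 CPM at day 12 and 1442, 4118 and 2740 CPM at day 10 (-2.01 ± 0.38, adjusted p = 0.00101). Postn (-2.09 ± 0.38, adjusted p = 0.000812), Dcn (-1.95 ± 0.41, adjusted p = 0.00239), Col1a1 (-1.80 ± 0.34, adjusted p = 0.000963), Sparc (-1.21 ± 0.26, adjusted p = 0.00255) and Lamb1 (-0.57 ± 0.12, adjusted p = 0.00152) fell as well. Fn1 rose to 3817, 3501 and 3665 CPM at day 12, against 2505, 2412 and 2540 CPM at day 10 (0.56 ± 0.11, adjusted p = 0.00102). Eln (-2.42 ± 0.77, adjusted p = 0.0301) lost its call without day 10 replicate 2 or 3 or day 12 replicate 1 or 2, with adjusted p from 0.0866 to 0.111. Col4a1 (-0.73 ± 0.20, adjusted p = 0.0123) lost it without day 10 replicate 2 (0.0965) or day 12 replicate 3 (0.0508). Without day 10 replicate 2, the library with the highest matrix sum of that day, the count of called genes was 18. Among 17 fibroblast markers 14 fell (median -1.19), with sums of 560 to 614 CPM at day 12 and 749 to 1638 CPM at day 10.

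The WT iPSC lines come from another cross than the totalx2 cells beside them in the table, so lineage and stage cannot be told apart in this comparison. Relative to totalx2 day 12 GFP+ cells, 19 of the 41 genes fell, 2 rose and 20 did not pass, where 51.1% of all genes tested were called (25% higher and 26% lower). The share of the 41 called in either direction was near that of all genes. Scaling by library totals gave a median over all genes of -0.15, against -0.01 with TMM, and 21 lower and 2 higher. Without WT replicate 1, which had 12.2% mitochondrial counts, the count of called genes was 16. Of the 9 basement membrane genes 8 fell, all but Lamc1. Lama1 had 59.0, 69.7 and 87.7 CPM in WT iPSC and 358, 335 and 354 CPM in day 12 GFP+ cells (-2.27 ± 0.15, adjusted p = 5.17e-10). Lama4 fell by 2.78 ± 0.20 (adjusted p = 1.99e-09), Col4a1 by 1.54 ± 0.21 (adjusted p = 6.48e-06) and Lamb1 by 0.79 ± 0.12 (adjusted p = 1.92e-05). Fn1 fell to 2023, 1646 and 1882 CPM in WT iPSC, against 3817, 3501 and 3665 CPM (-0.98 ± 0.11, adjusted p = 6.04e-07).

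Outside the basement membrane, Fmod, Eln and Col11a1 showed the largest changes. Fmod, a proteoglycan of tendon, had 0.266, 0.163 and 0.171 CPM in WT iPSC, near the level of a few counts, and 18.3, 18.007 and 22.1 CPM in day 12 GFP+ cells (-6.62 ± 0.64, adjusted p = 1.57e-07). Col11a1 fell by 2.92 ± 0.35 (adjusted p = 2.71e-06). Eln (-3.08 ± 1.07, adjusted p = 0.0247) lost its call without any 1 of the WT iPSC lines or day 12 replicate 3, with adjusted p from 0.0702 to 0.104. Postn rose to 171, 128 and 138 CPM in WT iPSC, against 57.6, 57.8 and 55.1 CPM in day 12 GFP+ cells (1.36 ± 0.37, adjusted p = 0.00597), and Tnc rose by 1.77 ± 0.53 (adjusted p = 0.011). The 7 fibrillar collagens had 3 that fell, Col1a2, Col3a1 and Col11a1, and Col1a1 did not pass at -0.22. Of 17 fibroblast markers 2 rose and 3 fell (median -0.14), with sums of 720 to 767 CPM in WT iPSC and 560 to 614 CPM in day 12 GFP+ cells.

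Loss of Tet1 was examined in the clonal iPSC lines. Tet1 itself had 54.3 to 58.6 CPM in KO lines and 822 to 1301 CPM in WT lines, so the lines follow their labels. Its counts cover the whole gene span, including any part outside the disrupted region. Of the 41 matrix genes 3 rose in KO lines, 0 fell and 38 did not pass, where 10.7% of all genes tested were called (4.78% higher and 5.87% lower), and the median difference was 0.26, against -0.04 over all genes. The called share of the 41 was below that of all genes. All 3 called genes are laminin chains, while the laminin chains Lama5 and Lamc1 did not pass. Lama1 had 119, 116 and 88.4 CPM in KO lines and 59.0, 69.7 and 87.7 CPM in WT lines (0.58 ± 0.14, adjusted p = 0.0128). Lamb1 had 158, 177 and 161 CPM in KO lines and 114, 121 and 139 CPM in WT lines (0.41 ± 0.12, adjusted p = 0.0292). Lama4 had 17.7, 26.7 and 23.2 CPM in KO lines and 13.9, 12.7 and 15.6 CPM in WT lines (0.68 ± 0.20, adjusted p = 0.0333).

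These 3 calls were lost in several alternatives, while the direction stayed. Over all alternatives the log2 difference ran between 0.46 and 0.75 for Lama1, between 0.36 and 0.50 for Lamb1 and between 0.55 and 0.83 for Lama4. In a fit of the KO and WT lines alone the adjusted p was 0.144 for Lama1, 0.109 for Lamb1 and 0.0938 for Lama4. Lama1 lost its call without KO replicate 1 (0.0755) or 2 (0.0625), Lamb1 without KO replicate 1, 2 or 3 (0.0552, 0.102 and 0.0574) or WT replicate 1 (0.0633), and Lama4 without KO replicate 2 or 3 (0.141 and 0.0811) or WT replicate 1 or 2 (0.099 and 0.0637). The count of called genes was 1 without KO replicate 1, 0 without KO replicate 2, 1 without KO replicate 3 and 1 without WT replicate 1, the library with 12.2% mitochondrial counts. WT replicate 1 was also the lowest WT line for Hspg2, with 854, 901 and 751 CPM in KO lines and 474, 872 and 913 CPM in WT lines, and for Lama5, with 303, 292 and 261 CPM in KO lines and 107, 255 and 262 CPM in WT lines. Neither passed the test. The collagens I, III and IV, fibronectin and the proteoglycans did not pass either. Their values included Col1a1 at 383, 556 and 468 CPM in KO lines and 423, 470 and 497 CPM in WT lines, and Col3a1 at 439, 662 and 512 CPM in KO lines and 229, 340 and 378 CPM in WT lines. Of 17 fibroblast markers 1 rose (median -0.00294), with sums of 622 to 752 CPM in KO lines and 720 to 767 CPM in WT lines.

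Genes that modify, bind or degrade the matrix were counted in the same fits. At day 10 relative to MEF, 28 of 29 genes of collagen biosynthesis fell and 0 rose, with P4ha1, a prolyl hydroxylase of collagen chains, at 40.9 CPM in day 10 cells and 327 CPM in MEF (-3.00 ± 0.10, adjusted p = 3.87e-16). Of 26 matrix receptors 22 fell and 1 rose. The fibronectin receptor chain Itga5 had means of 40.4 CPM in day 10 cells and 826 CPM in MEF (-4.35 ± 0.13, adjusted p = 2.51e-17), and the 1 that rose was Itgb4, an integrin chain that binds laminin in epithelia, with means of 76.2 CPM in day 10 cells and 4.50 CPM in MEF (4.07 ± 0.15, adjusted p = 8.2e-16). Of 24 remodelling genes tested of 26, 22 fell and 1 rose. Of 29 further collagens tested of 30, 24 fell and 0 rose. Of 17 further laminins and basement membrane genes tested of 18, 10 fell and 5 rose.

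The same lists between totalx2 day 12 GFP+ and GFP- cells were 21 of 29 lower and 1 higher for collagen biosynthesis, 20 of 24 lower and 2 higher for receptors, and 23 of 25 lower and 0 higher for remodelling. Of 26 further collagens 13 fell and 4 rose, and of 17 further basement membrane genes 11 fell and 4 rose. Fkbp10, a collagen chaperone, had means of 36.7 CPM in GFP+ cells and 184 CPM in GFP- cells (-2.32 ± 0.20, adjusted p = 1.8e-08). Itgb4 was here lower, at 74.8 CPM in GFP+ cells and 364 CPM in GFP- cells (-2.28 ± 0.15, adjusted p = 3.44e-10). At day 14 of naivex2, 12 of 29 biosynthesis genes, 12 of 26 receptors and 15 of 24 remodelling genes fell in GFP+ cells relative to GFP- cells, and 2, 2 and 1 rose.

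Between KO and WT iPSC, few genes of these lists were called. In collagen biosynthesis 1 of 29 rose and 0 fell, and that was Serpinh1, the collagen chaperone HSP47, with means of 335 CPM in KO lines and 202 CPM in WT lines (0.72 ± 0.23, adjusted p = 0.0457). Of 24 receptors 1 rose, Sdc4 (0.93 ± 0.14, adjusted p = 0.000255), and 1 fell, Dag1, the dystroglycan that binds laminin (-0.60 ± 0.11, adjusted p = 0.00166). Of 26 further collagens 2 rose, with Col6a4 at means of 5.32 CPM in KO lines and 0.532 CPM in WT lines (3.45 ± 0.45, adjusted p = 6.98e-05), and 0 fell. Of 17 further basement membrane genes 1 rose and 1 fell, and the one that fell was Tinagl1 (-1.42 ± 0.19, adjusted p = 0.000116).

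Overlapping annotation could touch a few of these counts. The spans of Col4a1 and Col4a2 meet head to head on opposite strands. Of the 41 genes, 9 share bases with a same-strand gene that is not protein-coding, at most 5.6% of the span (Col5a2), and 13 share bases with a gene on the opposite strand. Non-coding genes on the opposite strand cover 85.5% of the span of Loxl2 and 77.0% of that of Tnc. Counting used the strand, per the file headers.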

How the data were processed

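The values are whole-number read counts per gene as the authors deposited them, in 1 table a sequencing batch. Per the file headers they were made with featureCounts 1.5.3 at strand setting 2, over gene spans with introns. Per the submitters' processing notes, HISAT2 2.1.0 and DESeq2 1.18.1 were also used and the build was mm10. RNA was poly(A)-selected and stranded, per the labels' protocols. Samples were grouped by GEO's labels. The title of replicate 2 of the totalx2 day 12 GFP- cells lacks the mark of its gate, which was taken from its source name.

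The 41 genes, the marker lists and the tests were chosen with earlier results of these data known. In R 4.3.3, edgeR 4.0.16 (limma 3.58.1) filtered low counts with filterByExpr, scaled by TMM and fitted all 7 groups of a table with robust quasi-likelihood dispersions. Standard errors are the log2 change divided by the square root of F. Differences of differences were contrasts in the same fits. CPM used library totals times TMM factors. DESeq2 1.42.0, other scalings and filters, fits of the compared groups alone, a block for the line and the omission of each library or of libraries over 8% mitochondrial counts were alternatives. The edgeR step was tested on simulated data with 200 changed genes. Figures were drawn with matplotlib 3.10.9 in Python 3.11.15.

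Full statistics are given, per comparison, for up to 4 called genes with the largest change at 10 CPM or more, up to 2 called against the common direction, and any called gene among Col1a1, Col4a1, Fn1, Sparc, Lama1, Lamb1, Igfbp5 and Dcn. Other lists are counted with up to 2 called genes named.

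Within naivex2 and within totalx2 the replicate number is the embryo line, so groups of a series are paired by origin. Deviations of same-numbered libraries correlated at -0.121 to 0.359 in naivex2 and at 0.126 to 0.593 in totalx2. Depth was 6540256 to 20783265 counts a library. No pair of replicates agreed within sampling noise (lowest chi-square per degree of freedom 3.00), so each counted once. That value was highest in pairs with WT iPSC replicate 1 (141 and 150.7), where WT replicates 2 and 3 had 7.765. Pairs with naivex2 day 10 replicate 1 came next (68.07 and 70.7), where replicates 2 and 3 of that group had 6.007. MEF exist in 1 table, so levels were compared within a table.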

Additional observations from a re-analysis of the deposited data

Results flagged for a closer look

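The difference between totalx2 GFP+ and GFP- cells changed between day 10 and day 12 for 34 of the 41 genes, as the test of the difference of differences in edgeR found (all adjusted p below 0.05). Every value below is that log2 quantity, day 12 minus day 10, and every one is negative. Among fibril-forming collagens it was -2.88 for Col1a1, -2.60 for Col1a2, -2.71 for Col3a1, -2.73 for Col5a1, -2.66 for Col5a2 and -2.34 for Col11a1. The chains of collagens VI, VIII and XII had -2.67 (Col6a1), -2.71 (Col6a2), -2.55 (Col6a3), -2.56 (Col8a1) and -2.58 (Col12a1). Elastic fibre and cross-linking genes had -2.32 (Fbn1), -1.99 (Fbln2), -2.56 (Fbln5), -2.73 (Lox), -2.58 (Loxl1) and -2.41 (Loxl2). The glycoproteins had -2.79 (Postn), -2.16 (Sparc), -2.28 (Thbs1), -2.61 (Thbs2) and -2.07 (Tnc). The proteoglycans had -2.30 (Dcn), -2.29 (Lum), -2.80 (Bgn), -2.70 (Fmod) and -1.62 (Vcan), and the growth factor carriers -2.33 (Igfbp5) and -2.62 (Igfbp7). The basement membrane genes had -1.96 (Col4a1), -2.04 (Col4a2), -0.58 (Nid1, the nearest to 0 of the 34), -2.03 (Lama4) and -1.25 (Lamb1).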

How the results depend on the processing

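Counts of called genes, and the matrix genes given with full statistics, were recomputed with each alternative that applied to the comparison. Those genes were all called in the main fit, and other called genes were not recomputed singly. Of 1864 such single-gene values, 1737 kept their direction and call, 127 lost the call and 0 reversed. Counts of called genes moved by more than 1.5 times in the following cases, and the cause was not tested. With no low-count filter, 2 genes were called between naivex2 day 12 GFP+ and GFP- cells (5 with it) and 2 between totalx2 day 10 GFP+ and GFP- cells (4 with it). With the line as a replicate block, the counts were 8 and 12 for those same comparisons, 7 for naivex2 day 12 against day 10 GFP- cells (4 without it) and 21 for totalx2 day 12 against day 8 GFP- cells (13 without it). The block moved no other count within the 2 series by that much. KO and WT clones share only a number (same-numbered deviations correlated at -0.0909 to 0.0163), and a block on it called 6, 5 higher and 1 lower, against 3 without it. No paired analysis was possible for WT iPSC against totalx2 day 12 GFP+ cells because they come from different crosses. A fit of the compared groups alone called 1 for naivex2 day 12 against day 10, 8 for day 12 GFP+ against GFP- and 4 for the naivex2 difference of differences (0 otherwise). DESeq2 called 8 for naivex2 day 12 against day 10 and 1 for that difference of differences. Without the libraries over 8% mitochondrial counts, 1 gene was called between KO and WT. With library totals alone, the median matrix gene stood at 6.49% of its MEF level in day 10 cells (5.34% with TMM), 7.29% in day 12 GFP- cells (5.75%), 9.38% in day 14 GFP+ cells (7.39%) and 19.9% in day 14 GFP- cells (15.4%).

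Leaving out 1 library at a time gave 1 to 7 called genes for naivex2 day 12 against day 10, 2 to 6 for day 12 GFP+ against GFP-, 15 to 26 for day 14 GFP+ against GFP-, 12 to 26 for GFP+ day 14 against day 12, 2 to 13 for totalx2 day 10 GFP+ against GFP-, 18 to 35 for totalx2 GFP+ day 12 against day 10 and 0 to 3 for KO against WT. It also gave 15 to 27 for naivex2 iPSC against day 14 GFP+ cells (18 with all libraries), the highest without iPSC replicate 3. For totalx2 day 10 against day 8 GFP- cells it gave 23 to 37 (29 with all libraries). Few counts lay behind some values, such as 2 to 3 of Fmod in each WT iPSC line and 4 of Eln in replicate 3 of the naivex2 day 12 GFP+ cells.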
